A study of Homo sapiens with 6 samples.

Results

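The ZNF genes of chromosome 19 were compared between the breast cancer line MDA-MB-231 and its subline MDA-MB-231-D3H2LN. The members are all genes that the deposited table places on chromosome 19 and whose symbol is ZNF, a number and at most 1 letter, which gave 263 of 61541 genes. Of these, 93 start below 30 Mb and are called 19p here, and 170 start from 30 Mb on and are called 19q. The rule uses position and name and no level, but the family was proposed with the contrast between these lines already known. Counts and medians over the members are therefore a description, and nothing is read from their size.

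MDA-MB-231 is a triple-negative human breast cancer line, and 3 libraries came from the parental cells. The other 3 libraries came from the D3H2LN subline, which the labels trace to Perkin Elmer and abbreviate MDA231-LN, and which is known as a luciferase-carrying derivative that spreads to lymph nodes in mice. Both were cultured in high-glucose DMEM with 10% fetal bovine serum, no treatment is given for either, and RNA was profiled by bulk RNA-seq. Each group is 1 cell line, so the lymph node origin cannot be told apart from any other difference between the lines, and no label says that the replicates were separate cultures, so p-values measure the spread between these libraries, which may be technical.

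Between 16461578 and 19171017 fragments were counted per parental library, and between 17661542 and 18882719 per MDA231-LN library. Over all genes, 14176 passed the filter on low counts, and 62.8% of them differed between the lines at an adjusted p under 0.05 (edgeR quasi-likelihood test, Benjamini-Hochberg adjustment), 31.6% higher and 31.2% lower in MDA231-LN. All differences are MDA231-LN minus parental, and levels are in CPM, the counts of a gene per 1000000 counts of the scaled library. The summed level of the MDA-MB-231 markers VIM, CD44, AXL and CAV1 was 3003 to 3162 CPM in the parental libraries and 4943 to 5218 CPM in MDA231-LN. The 5 leukocyte markers summed to at most 0.824 CPM in a parental library and 1.18 CPM in a library of MDA231-LN, with CD3E at 0 in all libraries. Endothelial markers summed to 9.70 to 14.9 and 9.99 to 11.1 CPM, and fibroblast markers to 9.13 to 14.4 and 16.6 to 20.0 CPM, in the parental line and MDA231-LN. These sums hide single genes, since 2 of 3 tested endothelial markers were lower and 2 of 3 tested fibroblast markers higher in MDA231-LN. The luminal markers summed to 475 to 505 and 387 to 410 CPM, and they did not move together, since KRT18 fell from 455 ± 15.9 to 363 ± 8.74 CPM and FOXA1 rose from 0.179 ± 0.0677 to 2.63 ± 0.841 CPM (SD, n = 3 each), while EPCAM and GATA3 did not pass the test. The part of these levels in the results below was not tested.

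ZNF genes encode proteins with tandem C2H2 zinc fingers, each of which can contact a few bases of DNA. Most of those on chromosome 19 also carry a KRAB box, a domain that binds TRIM28 (KAP1) and through it recruits the histone methyltransferase SETDB1 and HP1 proteins, which compact chromatin. The genes arose by repeated tandem duplication and lie in clusters, and many of their products bind and silence transposable elements. A KRAB box was found in 206 of 247 protein-coding members, in any reading frame of any of their protein-coding transcripts. Fingers were counted in the longest reading frame only, so box and fingers need not share a frame or transcript. The median member had 12 fingers in each arm, with the most, 36, in ZNF208. The search used a sequence pattern, so a member without a match may still hold a divergent box.

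Of the 263 members, 159 were tested, 50 in 19p and 109 in 19q, and 104 did not pass the filter. Among those 104, 65 had no count in any library and 68 shared at least 90% of their span with another annotated gene, with 56 members in both sets. The counting command in the file header holds no option for fragments that overlap several genes, which are then assigned to none, so a count of 0 does not show such a member to be silent. A span shared to that extent was held by 26.6% of the members, against 14.3% of all protein-coding genes and 37.0% of all genes in the table, and by 40.5% of the other genes of 19p and 34.5% of those of 19q.

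Most tested ZNF genes of 19q were higher in MDA231-LN, and in 19p more fell than rose. In 19q, 68 of 109 tested members rose and 2 fell (background 31.6% higher and 31.2% lower among all genes tested), and 8 of the 109 had a negative log2 fold change. In 19p, 8 of 50 rose and 20 fell (16% and 40%), beside 40.6% higher and 42.2% lower among the other genes of 19p. The median log2 fold change was 0.55 in 19q, with quartiles of 0.32 and 0.81, and -0.16 in 19p, against 0.02 over all genes tested. Upper-quartile scaling, which moved the median of all genes to 0.13, left the 19p median at -0.046, with 9 members higher and 17 lower. The shift in 19q was mostly modest in size, since 14 members rose and 1 fell by at least 2-fold (background 13.0% and 7.53%), while in 19p the largest rise was 0.85 on the log2 scale and 4 fell by at least 2-fold. In 69 of the 109 members of 19q every MDA231-LN library lay above every parental library (background 33.8%), and in 23 of the 50 of 19p every one lay below (background 32.8%). Among the other genes tested of each arm, 274 of 379 in 19q lay above and 163 of 377 in 19p lay below in this way. The other ZNF genes of the genome, chosen by the same symbol rule on other chromosomes, had 41 higher and 60 lower of 192 tested and a median of -0.04.

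**Figure D1:**
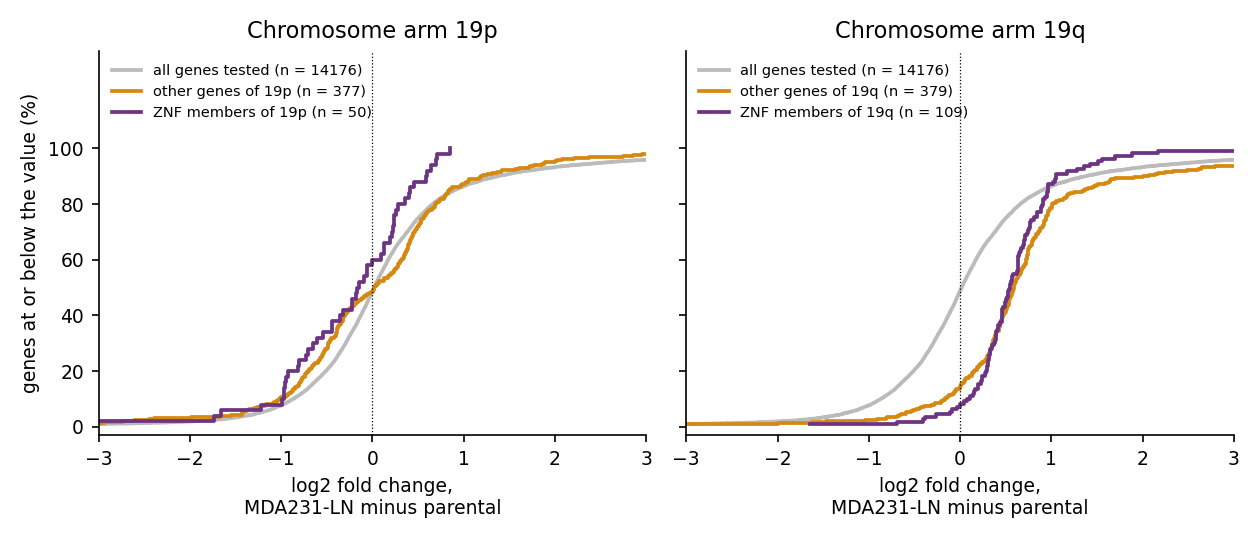
Cumulative share (y axis, percent) of tested genes at or below each log2 fold change, MDA231-LN minus parental (x axis), with 1 panel per arm; lines give the ZNF members, the other genes of the arm and all genes tested. In 19q the line of the 109 members runs close to that of the arm's other genes, with medians of 0.55 and 0.59, and in 19p the 50 members lie to the left, with a median of -0.16 against 0.02.

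Other genes of 19q moved the same way as the ZNF genes there. Among 379 tested non-member genes of 19q, 263 were higher and 19 lower, with a median log2 fold change of 0.59, so the member median lay 0.04 below it. Within 0.5 of the arm's median on the log2 scale were 88 of 109 members (80.7%), against 63.6% of the other genes. Members at least 2-fold above that median were ZNF542P, ZNF137P, ZNF525 and ZNF415 (4 of 109). Those at least 2-fold below were ZNF114 and ZNF599, of which ZNF599 did not pass the test (adjusted p = 0.0597, edgeR). ZNF137P had 11 parental counts against 41 in MDA231-LN. Among the other genes of 19q, 48 of 379 lay that far above and 27 that far below. In 19p the 377 other genes were split, with 153 higher and 159 lower and a median of 0.02. ZNF257, ZNF563, ZNF442, ZNF681 and ZNF429, 5 of 50 tested members, lay at least 2-fold below that median, and 0 lay that far above. Among the other genes of 19p these numbers were 40 and 47 of 377. The part of the arm-wide level in the members' values was not tested.

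The summed level of the members separated the lines in every library. The 19q members summed to 1153, 1082 and 1126 CPM in the parental libraries and to 1627, 1612 and 1638 CPM in MDA231-LN. The 19p members summed to 772, 731 and 791 CPM and to 629, 667 and 632 CPM. The groups did not overlap in either arm, with 19q higher and 19p lower in MDA231-LN. The fall in 19p was not shared by all its parts. The 42 members at 19.7 to 24.1 Mb summed to 192, 181 and 193 CPM and then to 204, 211 and 203 CPM. ZNF121 alone fell from a mean of 127 to 66.7 CPM, beside a mean 19p sum of 765 and 643 CPM. The ratio of the 19q to the 19p sum was 1.49, 1.48 and 1.42 for parental replicates 1 to 3 and 2.59, 2.42 and 2.59 for those of MDA231-LN, a mean of 1.47 ± 0.037 against 2.53 ± 0.10 (SD, n = 3 each). In bulk RNA, fewer cells that express a gene and less RNA per cell cannot be told apart. The number of 19q members with at least 1 count was 118 to 126 in parental libraries and 126 to 131 in MDA231-LN, and that of 19p members was 58 to 59 and 54 to 57. Over all genes of the genome this number was also larger in MDA231-LN, at 17962 to 18196 in parental libraries and 19839 to 20024 in MDA231-LN.

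**Figure D2:**
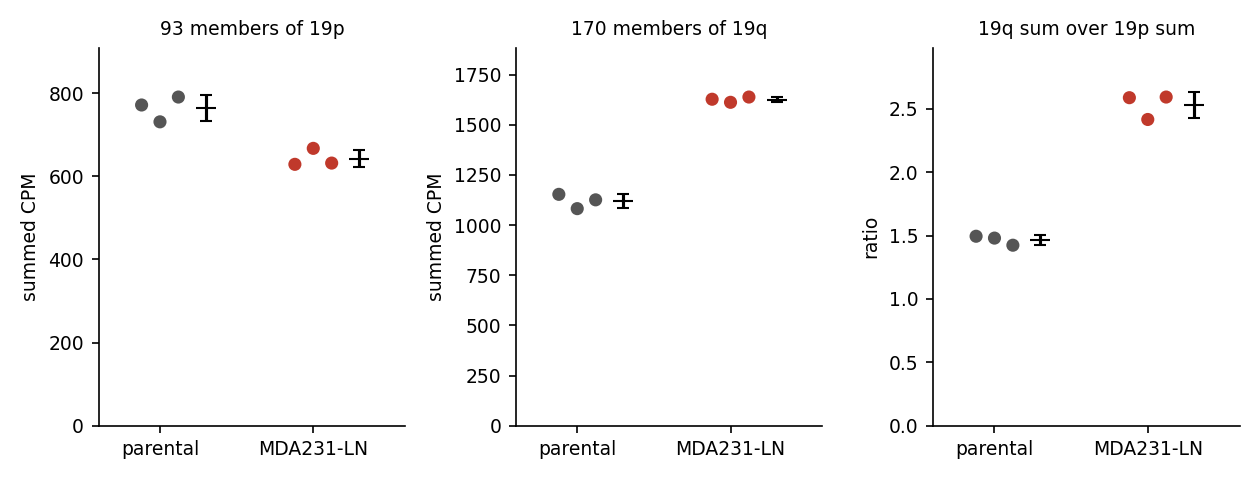
Summed level of the ZNF members (y axes, CPM from 0) in each of the 6 libraries, by arm and line and, at the right, the ratio of the 19q to the 19p sum; points are libraries, and the bars beside them show the mean and SD of the 3. The MDA231-LN points lie above the parental points in 19q (1612 to 1638 against 1082 to 1153 CPM) and below them in 19p (629 to 667 against 731 to 791 CPM). The other genes of 19q, not drawn, also summed higher in MDA231-LN.

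Members were grouped into clusters where neighbours started less than 1 Mb apart and at least 5 stood together, which gave 4 clusters in 19p (p1 to p4) and 5 in 19q (q1 to q5), with 12 members left scattered. Cluster p3 at 11.5 to 12.6 Mb had the lowest median, -0.72, with 8 of its 12 tested members lower and 1 higher. Cluster p2 at 7.1 to 9.8 Mb had 5 of 11 lower and 1 higher. Cluster p4, next to the centromere at 19.7 to 24.1 Mb, held 6 higher and 6 lower among 24 tested. Cluster p1 at 2.8 to 2.9 Mb had 2 tested members, neither of which passed the test. All 5 clusters of 19q had positive medians, from 0.40 in q2 at 36.2 to 37.8 Mb to 0.70 in q4 at 51.6 to 53.6 Mb. The members that rose numbered 4 of 5 in q1, 6 of 17 in q2, 9 of 17 in q3, 22 of 30 in q4 and 22 of 34 in q5, and 1 member of these clusters fell, ZNF175 in q4. Over all genes tested 31.6% were higher and 31.2% lower, so q2, at 35.3% higher, lay near the background, and p4 had 25% each way. Of the other genes tested, 69.4% were higher in 19q, and 40.6% were higher and 42.2% lower in 19p. Cluster q4 held 7 of the 14 members of 19q that rose at least 2-fold.

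**Figure D3:**
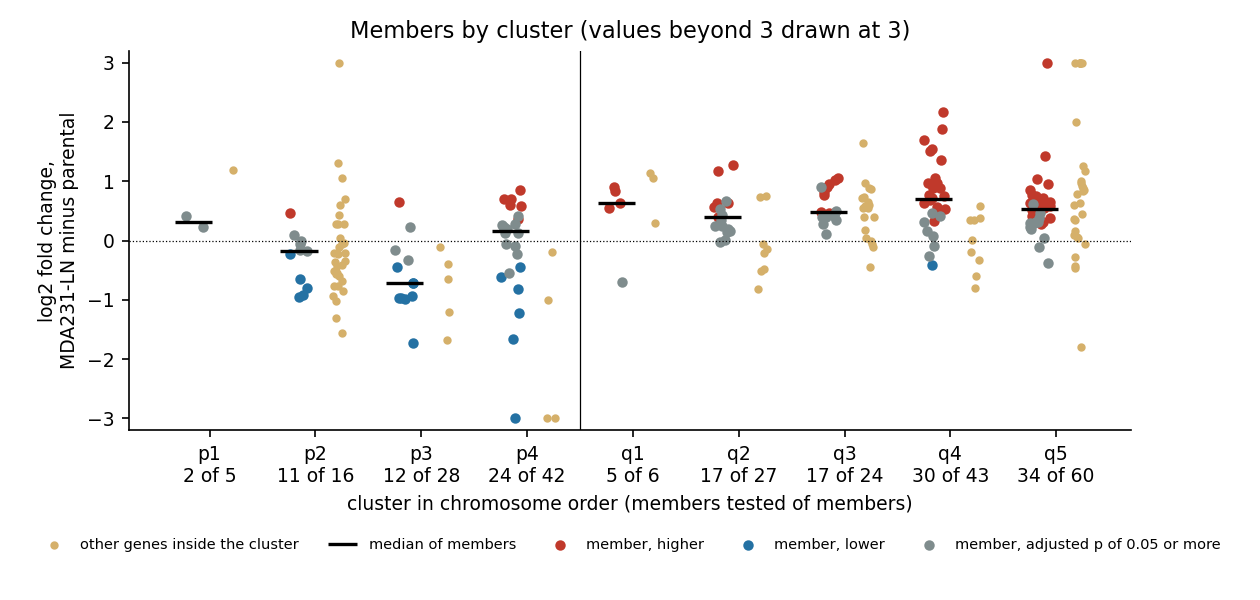
Log2 fold change of each tested member (y axis, MDA231-LN minus parental) by cluster (x axis); points are genes, coloured by whether they passed the test, with other genes inside the cluster at the right of each column, bars are the members' medians, and values beyond 3 are drawn at 3. Medians run from -0.72 in p3 to 0.70 in q4, and p4 holds genes on both sides of 0.

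Non-member genes inside a cluster's span did not always share its median. In p2 and p3 the other tested genes had medians of -0.34 (33 genes) and -0.65 (5 genes), of the same sign as the members. In q3 and q5 they had 0.55 (19 genes) and 0.81 (30 genes). In q4 the 9 other tested genes had a median of 0.00, with 1 higher and 1 lower, beside 0.70 for the members, and in q2 the 8 others had -0.17 beside 0.40. These are small numbers of genes and the differences were not tested. Cluster p2 depended on the gap that ends a cluster: with 0.5 Mb it held 14 members, 3 of 9 tested were lower, and the 3 other genes tested inside it had a median of -1.02.

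Promoter sequences were at hand for 216 of the 263 members in RefSeq's table for GRCh38.p14, each running from upstream of the gene's start to shortly after it. The motif CCAAT, the box bound by the factor NF-Y, was searched on both strands (CCAAT or ATTGG). It was present in 35.7% of all 27305 promoters in the table, in 82.2% of the 73 promoters of 19p members and in 39.2% of the 143 of 19q members. In cluster p4 it was present in 29 of 29, with a median distance of 53 bases before the start, and in p3 in 22 of 24. The clusters of an arm differed, since p2 had it in 28.6% of 14 promoters, and in 19q it was present in 28.1% of 32 in q4 and 61.1% of 54 in q5. The motif GGGCGG, searched on both strands and not overlapping CCAAT in its letters, was present in 44.6% of all promoters, 82.2% of 19p members and 60.1% of 19q members. The promoters of p4 were also alike along their whole length, with a median pairwise identity of 76.1% over 406 pairs, against 53.1% in p3 and 52.3% in q4. A match to these letters is not a binding site shown in these cells.

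Promoters of 6 members are printed because they stand for the patterns described next: a p4 gene that rose (ZNF714, chr19:21081953-21082252, plus strand), a p4 gene that was nearly lost (ZNF257, chr19:22052234-22052533, plus strand), a p4 gene that fell (ZNF675, chr19:23687163-23687462, minus strand), a p3 gene that fell (ZNF440, chr19:11814023-11814322, plus strand), and a q4 and a q5 gene that rose (ZNF415, chr19:53132861-53133160, and ZNF132, chr19:58440104-58440403, both minus strand). Each reads 5′ to 3′ in the gene's direction, and capitals mark CCAAT boxes.
ZNF714: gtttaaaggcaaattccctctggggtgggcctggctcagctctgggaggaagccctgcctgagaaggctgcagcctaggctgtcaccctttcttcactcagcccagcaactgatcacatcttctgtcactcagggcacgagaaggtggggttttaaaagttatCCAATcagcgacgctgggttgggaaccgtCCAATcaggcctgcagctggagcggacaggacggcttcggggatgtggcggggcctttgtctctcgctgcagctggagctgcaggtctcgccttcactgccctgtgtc
ZNF257: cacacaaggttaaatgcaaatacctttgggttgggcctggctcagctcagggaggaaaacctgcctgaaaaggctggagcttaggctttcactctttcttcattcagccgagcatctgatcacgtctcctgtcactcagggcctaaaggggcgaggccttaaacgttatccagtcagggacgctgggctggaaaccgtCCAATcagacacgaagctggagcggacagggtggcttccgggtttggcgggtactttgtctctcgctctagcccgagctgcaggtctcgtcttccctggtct
ZNF675: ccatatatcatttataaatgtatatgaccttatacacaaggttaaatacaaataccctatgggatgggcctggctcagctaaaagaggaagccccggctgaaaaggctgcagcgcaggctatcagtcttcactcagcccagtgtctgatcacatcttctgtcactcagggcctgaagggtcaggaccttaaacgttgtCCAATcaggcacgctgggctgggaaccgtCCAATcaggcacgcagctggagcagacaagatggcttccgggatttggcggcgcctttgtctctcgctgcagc
ZNF440: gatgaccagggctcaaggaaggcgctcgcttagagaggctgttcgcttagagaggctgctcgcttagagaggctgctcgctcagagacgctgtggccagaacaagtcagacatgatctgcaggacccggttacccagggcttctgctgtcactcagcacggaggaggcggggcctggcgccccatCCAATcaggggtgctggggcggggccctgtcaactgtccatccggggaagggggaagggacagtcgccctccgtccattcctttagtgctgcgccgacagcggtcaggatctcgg
ZNF415: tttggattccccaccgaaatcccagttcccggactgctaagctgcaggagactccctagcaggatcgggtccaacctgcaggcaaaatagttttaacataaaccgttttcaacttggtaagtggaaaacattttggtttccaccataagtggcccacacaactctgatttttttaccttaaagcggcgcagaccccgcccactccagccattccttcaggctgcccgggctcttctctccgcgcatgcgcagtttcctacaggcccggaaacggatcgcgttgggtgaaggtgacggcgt
ZNF132: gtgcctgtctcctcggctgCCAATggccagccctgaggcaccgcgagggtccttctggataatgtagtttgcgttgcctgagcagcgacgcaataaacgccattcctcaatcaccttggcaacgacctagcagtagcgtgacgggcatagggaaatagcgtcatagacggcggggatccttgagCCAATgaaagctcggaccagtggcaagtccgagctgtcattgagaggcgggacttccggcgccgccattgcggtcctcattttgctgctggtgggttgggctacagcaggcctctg
ZNF714, ZNF257 and ZNF675 carry CCAAT boxes in closely related surroundings, and their transcripts moved in different directions. ZNF132 has 2 boxes and ZNF415 has 0 in this window, and both rose.

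Cluster p4 was split by position. This division was chosen after the values were seen and carries no test. Among the 22 members from ZNF101 to ZNF100, on the side away from the centromere, 17 were tested, and 6 rose and 1 fell, with 13 positive and 4 negative log2 fold changes. The background was 31.6% higher and 31.2% lower over all genes tested, and 40.6% and 42.2% over the other genes of 19p. ZNF714, which starts at 21.08 Mb, measured 21.1, 18.3 and 17.8 CPM in the parental libraries and 36.6, 32.9 and 33.4 CPM in MDA231-LN. The groups did not overlap, and its log2 fold change was 0.85 ± 0.10 (SE; adjusted p = 4.04e-08, edgeR quasi-likelihood). ZNF93, known to bind and repress L1 elements, measured 5.12, 9.0 and 8.4 CPM and then 12.5, 12.4 and 11.7 CPM. It rose by 0.70 ± 0.17 on the log2 scale (adjusted p = 0.000886, edgeR), and its first parental library was the lowest. ZNF430 and ZNF431, neighbours of ZNF714, rose by 0.71 and 0.60, and ZNF101 and ZNF14, the outermost members, by 0.36 and 0.59. The last of these calls rested on single libraries: ZNF14 had an adjusted p of 0.197 without parental replicate 1 and 0.195 without MDA231-LN replicate 2 (edgeR), and ZNF101 had 0.082 to 0.173 in the edgeR fits without parental replicates 1 or 3 or MDA231-LN replicates 1 or 2. ZNF429 went the other way within this stretch, with 3.23, 2.03 and 1.61 CPM in the parental cells and 1.08, 0.665 and 0.411 CPM in MDA231-LN, a change of -1.66 ± 0.44.

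Between ZNF43 and ZNF675 lie 15 members. Of these 15, 11 had no count in any MDA231-LN library, and 6 of those 11 had none in the parental line either. Over all members, 65 of 263 had no count in any library, as did 37383 of 61541 genes. ZNF209P and ZNF849P, among the 6, share 100% of their span with other genes. The other 5 of the 11 had counts in the parental line, namely ZNF208, ZNF492, ZNF99, ZNF723 and ZNF730. For ZNF208 (2 counts), ZNF99 (4 counts) and ZNF730 (1 count) these came from a single parental library each, so their absence in MDA231-LN cannot be told from low depth. The 3 tested members were ZNF257 and ZNF91, which fell, and ZNF724, which did not pass the test and shares 96.0% of its span with other genes. ZNF257 at 22.05 Mb measured 6.52, 4.31 and 5.19 CPM in the parental libraries and 0, 0 and 0.103 CPM in MDA231-LN. That is 272 counts against 2, a ratio of 152 (95% exact counting interval 41.8 to 1265, which covers counting error only), and the difference passed the test (adjusted p = 2.95e-11, edgeR quasi-likelihood). ZNF257 stood in every parental library well above every MDA231-LN library. ZNF723 at 22.83 Mb had 32 counts in the parental line and 0 in MDA231-LN, at least 12-fold lower against a floor of 3 counts over the 3 libraries, and it was not tested. ZNF492 had 10 parental counts and ZNF99 had 4, and both had 0 in MDA231-LN. These genes were chosen for mention after their values were seen. ZNF91, a repressor of SVA elements, fell by 0.44 on the log2 scale, from 13.8, 12.7 and 13.7 CPM to 9.27, 9.81 and 10.5 CPM.

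ZNF43, which precedes that stretch, and ZNF675 and ZNF681, which follow it, also fell. ZNF675, reported to restrain TRAF6 signalling, measured 15.5, 16.4 and 15.3 CPM in the parental cells and 7.53, 9.20 and 10.0 CPM in MDA231-LN, a change of -0.82 ± 0.14 (adjusted p = 1.16e-05, edgeR) with no overlap. ZNF681 fell by 1.22 on the log2 scale and ZNF43 by 0.61. Nearest below the 30 Mb boundary, ZNF254 did not pass the test, at 8.85 ± 1.03 against 10.4 ± 0.669 CPM (SD, n = 3 each), and shares 48.4% of its span with other genes. With upper-quartile scaling its edgeR adjusted p was 0.0461. ZNF726, next to it, had 6 counts against 0. Nearest above 30 Mb, ZNF536, a repressor studied in neuronal differentiation, had 0 counts in the parental line and 9 in MDA231-LN, and ZNF507 rose from 48.9 ± 0.51 to 67.1 ± 4.48 CPM. The 4 other genes tested inside p4 had a median of -2.01, and 3 of them were lower.

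**Figure D4:**
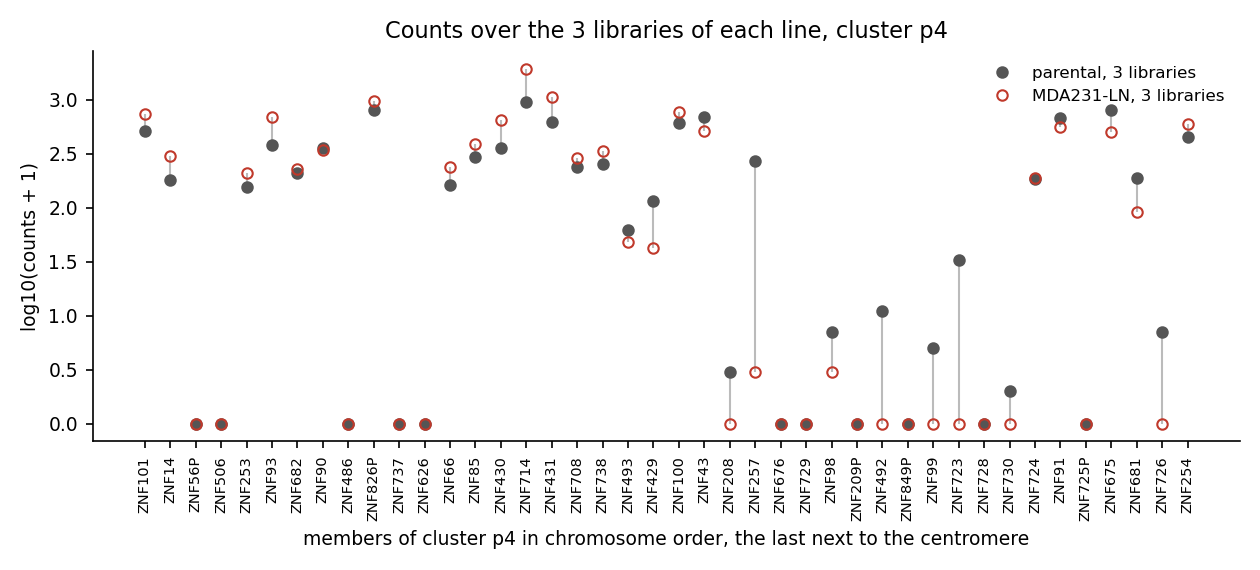
Raw counts summed over the 3 libraries of each line (y axis, log10 of the count plus 1) for the 42 members of p4 in order along the chromosome (x axis); the total scaled library size is larger in MDA231-LN, so equal counts are not equal levels. Between ZNF43 and ZNF675, 11 of 15 members have no count in MDA231-LN, 6 of them without a count in the parental line either. ZNF257 drops from 272 counts to 2.

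In cluster p3 most tested members fell. ZNF440 measured 31.8, 28.1 and 31.8 CPM in the parental libraries and 16.8, 15.4 and 14.6 CPM in MDA231-LN. Its log2 fold change was -0.97 ± 0.10 (adjusted p = 8.01e-09, edgeR quasi-likelihood), and the lines did not overlap. ZNF69 fell from 27.7, 22.9 and 29.5 CPM to 15.3, 17.6 and 15.8 CPM. ZNF563, at lower levels, fell from 2.74, 5.20 and 4.50 CPM to 1.43, 0.942 and 1.34 CPM, a change of -1.73 ± 0.32. ZNF442 and ZNF490 fell by 0.99 and 0.97, and ZNF490 shares 43.4% of its span with other genes. Both passed the test narrowly: the edgeR adjusted p of ZNF442 was 0.0704 without parental replicate 1 and 0.0565 without MDA231-LN replicate 2, and that of ZNF490 was 0.0917 without parental replicate 3 and 0.0694 without MDA231-LN replicate 3. ZNF136 was the single member of p3 that rose, from 4.33, 4.63 and 4.82 CPM to 6.66, 8.54 and 6.42 CPM. In this cluster 14 of 28 members had no count in any library and 16 shared at least 90% of their span, so the description rests on its tested minority.

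Cluster p2 had the highest median level of the 19p clusters, 30.6 CPM over its tested members in the parental line. ZNF121 measured 131, 107 and 142 CPM in the parental libraries and 63.7, 70.2 and 66.3 CPM in MDA231-LN. Its log2 fold change was -0.92 ± 0.08 (adjusted p = 1.28e-10, edgeR quasi-likelihood), with no overlap. ZNF358 fell by 0.96 and shares 85.0% of its span with other genes, so its count comes from a small part of its span. ZNF317 changed less, by -0.23 ± 0.07, and its edgeR adjusted p was 0.173 with upper-quartile scaling and 0.0948 without MDA231-LN replicate 1. ZNF414 did not pass the test, at 22.6 ± 2.15 against 22.4 ± 0.997 CPM. ZNF699, the human relative of the fly gene hangover, rose from 19.1, 19.3 and 19.4 CPM to 27.0, 26.4 and 26.1 CPM, a change of 0.46 ± 0.10.

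In 19q the largest rises by the naming rule lay in q4. ZNF415 measured 1.71, 1.01 and 1.5 CPM in the parental libraries and 6.35, 5.82 and 6.94 CPM in MDA231-LN, a 4.50-fold rise (log2 fold change 2.17 ± 0.26, adjusted p = 3.96e-08, edgeR quasi-likelihood). ZNF525 measured 2.25, 2.28 and 2.14 CPM and then 8.30, 8.37 and 8.07 CPM, a 3.70-fold rise with a small spread in each line. The lines did not overlap for either gene, and ZNF415 shares 35.7% of its span with other genes. ZNF880 rose from 1.77, 3.30 and 1.55 CPM to 6.92, 5.82 and 6.48 CPM. ZNF665 rose by 1.51 ± 0.30 and ZNF813 by 1.36 ± 0.17 on the log2 scale. At higher levels, ZNF331, which is imprinted in some tissues, rose from 19.6, 17.7 and 19 CPM to 37.4, 33.8 and 38.7 CPM. ZNF160, reported to repress TLR4, rose by 0.97 ± 0.11.

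In q5, ZNF132, a gene known to be silenced by promoter methylation in prostate cancer, measured 5.12, 2.60 and 3.59 CPM in the parental libraries and 10.4, 10.5 and 9.56 CPM in MDA231-LN. It rose by 1.43 ± 0.20 (adjusted p = 7.3e-07, edgeR quasi-likelihood) and did not overlap between lines. ZNF274, which binds the 3′ ends of other ZNF genes and recruits SETDB1 there, measured 38.6, 44.2 and 40.1 CPM and then 67.3, 68.8 and 70.9 CPM, a rise of 0.75 ± 0.08. ZNF134 rose by 1.04 ± 0.10 and ZNF264 by 0.96. ZNF542P had 4 parental counts, all in replicate 1, and 95 in MDA231-LN, a log2 fold change of 4.29 ± 0.71 (adjusted p = 8.74e-06, edgeR). Its neighbour ZNF582, which overlaps other genes over 51.7% of its span, had 1 count against 27. The ratio for ZNF582 was 24.1, with a 95% exact counting interval of 3.97 to 986. ZNF542P and ZNF582 fall outside the naming rule and were chosen after their values were seen.

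Clusters q1, q2 and q3 lie closer to the centromere. In q1, ZNF302 and ZNF792 rose by 0.84 and 0.90. In q2, ZNF565 measured 1.77, 2.03 and 1.45 CPM and then 4.25, 3.55 and 4.88 CPM, a rise of 1.28 ± 0.28 (adjusted p = 0.000256, edgeR), and 38% of its span is shared. In q3, ZNF180, ZNF283 and ZNF155 rose by 0.91, 0.95 and 0.81, and ZNF227 rose by 1.05 at low level, from 0.67, 1.90 and 2.03 CPM to 3.53, 3.16 and 2.93 CPM. Without parental replicate 1, its lowest library, ZNF227 changed by 0.69 and had an edgeR adjusted p of 0.0603. These genes did not overlap between the lines.

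ZNF114 and ZNF175 were the 2 members of 19q that fell. ZNF114, which starts at 48.27 Mb outside all clusters, measured 12.9, 12.2 and 12 CPM in the parental libraries and 4.87, 3.16 and 3.85 CPM in MDA231-LN. Its log2 fold change was -1.64 ± 0.17 (adjusted p = 6.91e-09, edgeR quasi-likelihood), and each MDA231-LN library lay far below each parental one. ZNF175, at the start of q4, measured 29.3, 27.4 and 26.7 CPM and then 22.3, 20.6 and 20.0 CPM, a change of -0.41 ± 0.10.

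**Figure D5:**
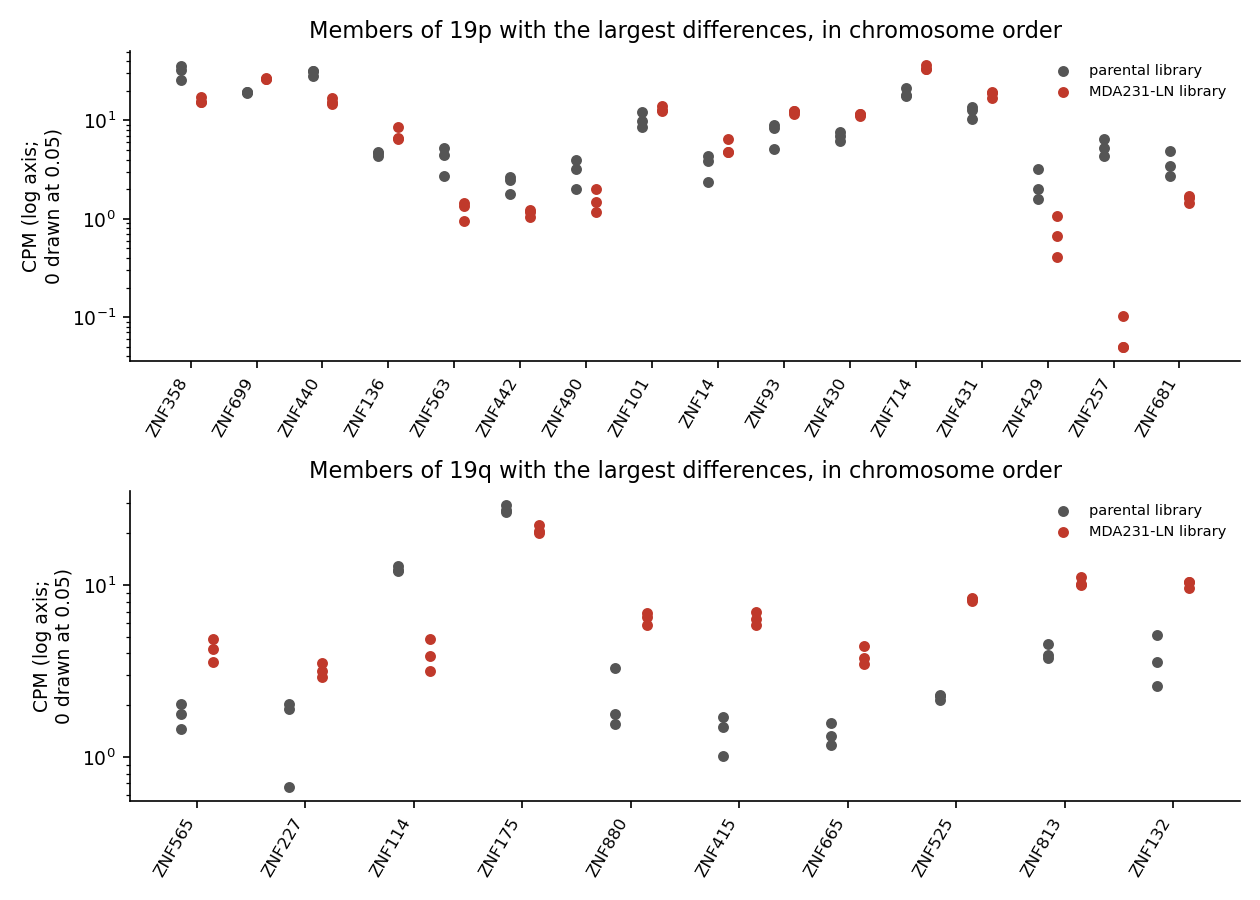
Level of the members with the largest differences (y axes, CPM on a log axis, 0 drawn at 0.05) in each library, with 1 panel per arm and genes in chromosome order along the x axes; grey points are parental libraries and red points MDA231-LN libraries. The MDA231-LN points lie above the parental points for ZNF415, ZNF525 and ZNF132 and below them for ZNF257, ZNF563 and ZNF114.

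In 19q, members rose both with and without a recognised KRAB box. Of 84 tested members with the box 51 rose and 2 fell, with a median of 0.54, and of 21 without it 14 rose, with a median of 0.57. Those shares were 60.7% and 66.7%, beside 69.4% of the other genes of 19q and 31.6% of all genes tested. In 19p, 8 of 44 tested members with the box rose and 17 fell. All 5 without it had negative log2 fold changes and 3 of those fell (31.2% lower over all genes and 42.2% over the other genes of 19p). ZNF414, among the 5, was at -0.0097, and its sign changed with the scaling. Levels per length differed in both arms. In 19q the parental median was 0.261 CPM per kb of counted length with the box and 1.01 without it. In 19p these medians were 0.197 and 5.04 CPM per kb. The counted length takes in introns, so long genes appear low on this scale. Over all tested members the parental median was 0.255 CPM per kb, against 0.774 for protein-coding genes. The highest 19q member per length was ZNF579, at 6.58 CPM per kb in the parental cells and 7.93 in MDA231-LN.

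The partners through which KRAB zinc finger proteins act changed in both directions. From a list of 26 corepressor genes, 25 were tested, and 6 rose and 13 fell, with a median log2 fold change of -0.23, beside 31.6% higher and 31.2% lower and a median of 0.02 over all genes tested (upper-quartile scaling gave 9 and 10, which moved the share of rising genes among those called from 31.6% to 47.4%). TRIM28, the scaffold that KRAB boxes bind, lies at the end of 19q and rose from 639, 659 and 620 CPM to 1035, 1001 and 1020 CPM, a change of 0.67 (adjusted p = 5.3e-12, edgeR quasi-likelihood). UHRF1, which keeps up DNA methylation, rose by 0.79, from 224 ± 8.25 to 388 ± 11.3 CPM. ATRX, a chromatin remodeller, fell by 1.25 on the log2 scale, and TASOR, of the HUSH silencing complex, fell by 0.91. SETDB1, the methyltransferase of the pathway, measured 46.2, 39.3 and 37.8 CPM and then 21.2, 19 and 16.7 CPM, a change of -1.12, and was named after its values were seen. CHD4 shares 83.9% of its span and was not tested.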

How the data were processed

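RNA from 6 libraries, 3 of parental MDA-MB-231 and 3 of MDA231-LN, was sequenced as paired ends of 150 bases, per the labels. The deposited values are raw counts per gene that the authors made with featureCounts 2.0.1 over whole gene bodies of Ensembl release 105 (GRCh38), introns included and with no strand option, per the file headers. STAR and DESeq2 are named, without a version, in the submitters' processing notes. Without strand, reads from overlapping antisense genes cannot be told apart, and near-identical ZNF copies may lose reads that map to several places.

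Symbols were found for 99.72% of genes. Counts were tested over all genes with edgeR 4.0.16 (TMM scaling, filterByExpr with a minimum count of 10, quasi-likelihood test, Benjamini-Hochberg adjustment over 14176 genes, threshold 0.05), in R 4.3.3. The CPM values use these scaled library sizes. Intervals and floors cover counting error only. Alternatives were other scalings and filters, DESeq2 1.42.0, a replicate block and leaving out each library. The script was tested on simulated counts for 14176 genes of this comparison, and it recovered 60.5% of 81 genes changed 1.5-fold, 79.3% of 58 changed 2-fold and 98.4% of 61 changed 4-fold. Replicates within a line differed by more than counting noise (chi-square per degree of freedom 3.85 to 8.70).

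KRAB boxes and fingers were searched in GENCODE 29 transcripts, and promoters came from RefSeq for GRCh38.p14. Named members were up to 8 per arm and direction with the largest change among those called, at a mean of at least 1 CPM and with no overlap between lines, the 4 highest per arm in CPM per kb, any member at 0 in every library of 1 line with at least 10 counts in each of the other, the 2 nearest to 30 Mb on each side, and up to 3 per cluster with the smallest adjusted p. The 4 corepressors with the smallest adjusted p, TRIM28 among them, were named too. The members and lists were chosen with earlier results of these data known. The level of 1 marker gene is not reported here.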

Additional observations from a re-analysis of the deposited data

How the results depend on the processing

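Over the alternatives, genes called numbered 8262 to 9361 (8904 as reported), 19p members 6 to 9 higher and 16 to 21 lower, and 19q members 58 to 76 higher and 2 to 3 lower. The 19p median log2 fold change moved from -0.16 to -0.046 with upper-quartile scaling and to -0.2211 with no filter, and the 19q median moved from 0.55 to 0.6581 with upper-quartile scaling. These settings moved the median of all genes from 0.02 to 0.13 and 0.15. The log2 difference of the 19q to 19p ratio between lines was 0.788 from sums and 0.8802 from mean log2 CPM. A gap of 0.5 Mb gave 10 clusters in place of 9, by splitting q5, and took 2 members from p2, whose lower calls went from 5 of 11 to 3 of 9. ZNF414, not past the test, changed sign to 0.0031 with RLE scaling, 0.1024 with upper-quartile scaling, 0.0032 with a 1 CPM filter and 0.0028 with DESeq2. Leaving out single libraries gave it -0.0902 to 0.0490, the positive values being 0.0490 without parental replicate 1 and 0.0179 without MDA231-LN replicate 2. Calls were lost for ZNF317 with upper-quartile scaling, and in fits without a single library for ZNF101, ZNF14, ZNF227, ZNF317, ZNF442, ZNF490 and ZNF579 (adjusted p of 0.184 without parental replicate 3, 0.0588 without MDA231-LN replicate 1 and 0.0694 without MDA231-LN replicate 2 for ZNF579, edgeR). ZNF254 was called with upper-quartile scaling. Same-numbered libraries did not deviate together (correlations -0.0039, 0.0024 and -0.0526), and with a replicate block 8591 genes, 8 and 20 members of 19p and 68 and 2 of 19q were called, and of the genes whose call is given in the text, ZSCAN5A lost it under the block. ZSCAN5A also missed the threshold with DESeq2 and without parental replicates 1 or 3 or MDA231-LN replicates 1 or 2 (adjusted p 0.0515 to 0.1713 over these fits and the block). Members with few counts are limited by depth, and those in shared spans by the counting rule.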

Other observations

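Zinc finger genes of chromosome 19 with other names were not members. Of 18 such genes found from a list of BTB, SCAN and KRAB zinc finger genes, 9 were tested. Among these 4 rose and 1 fell (edgeR), with a median log2 fold change of 0.48, beside 31.6% higher and 31.2% lower over all genes tested. All of the tested genes except ZBTB7A lie on 19q, where 69.4% of the non-member genes tested were higher and 5.01% lower. ZBTB45, close to TRIM28 at the end of 19q, rose from 21.7, 24.1 and 23.1 CPM to 34.4, 33.2 and 37.4 CPM. ZFP30, a KRAB zinc finger gene of 19q, rose by 0.74, and ZBTB7A, a repressor on 19p also known as LRF, rose by 0.48. ZSCAN5A rose by 0.63 at a low level, its lines overlapped and it shares 64.1% of its span. Its adjusted p was 0.0447 with edgeR, 0.0559 with DESeq2, 0.0515 with a replicate block and 0.1219 to 0.1713 in edgeR fits without parental replicates 1 or 3 or MDA231-LN replicates 1 or 2. ZSCAN18, a SCAN-domain gene of 19q, fell by 0.42, from 15.9, 16.6 and 15.7 CPM to 12.2, 12 and 11.7 CPM.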
